A study of Rattus norvegicus with 82 samples.

Results

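The beta subunits of the sodium pump and phospholemman, the small membrane protein bound to the pump in heart muscle, were followed in isolated rat cardiomyocytes of both ventricles. The genes were chosen by their symbols, with earlier results of these data already known. The matches were 4 of the 17337 genes of the deposited data, namely *Atp1b1*, *Atp1b2*, *Atp1b3* and *Fxyd1*. The genes of the catalytic alpha subunits were not analysed here. All 4 genes passed the filter on low counts and were tested in every comparison.

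The cells came from F1 hybrids of Wistar Kyoto mothers and Lewis fathers, with no transgene or deleted gene in any group. A titanium clip was placed on the pulmonary artery (PAB), which loads the right ventricle (RV), or on the ascending aorta (AOB), which loads the left ventricle (LV), or the rats were sham-operated. Banded groups ending in H were taken during compensated hypertrophy and banded groups ending in F after decompensation to heart failure. Sham-H and Sham-F are the sham-operated controls of these stages. RV and LV cells of each of 41 animals were sequenced separately, giving 82 libraries in 12 groups. Sham-H had 7 animals (3 male), PAB-H 6 (4 male) and AOB-H 6 (2 male), and at the later stage Sham-F had 9 (4 male), PAB-F 6 (4 male) and AOB-F 7 (4 male). By the labels, the H groups were 11 weeks old and taken 7 weeks after surgery, PAB-F was 28 weeks old and 22 weeks after surgery, and Sham-F and AOB-F were 31 weeks old and 26 weeks after surgery. The PAB-F animals were thus younger than their sham controls, and PAB-F and AOB-F were compared with the same Sham-F libraries, as PAB-H and AOB-H were with the same Sham-H libraries. The article gives other ages than the labels, and the treatment text of the labels gives yet another age at surgery. The RV and LV libraries of an animal entered the fit as independent, so that errors are between animals within a ventricle, while those of RV against LV take no account of the pairs unless a block for the animal is named.

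The sodium pump, or Na,K-ATPase, exports sodium and imports potassium at the cost of ATP. Its alpha subunit carries the ions, whereas the glycosylated beta subunit is needed to fold the enzyme and bring it to the membrane and also tunes its affinity for potassium. *Atp1b1* encodes the main beta subunit of heart muscle. *Atp1b2* encodes a beta subunit first known as an adhesion molecule of glia, and *Atp1b3* encodes a further, widely expressed form. *Fxyd1* encodes phospholemman, a FXYD protein that holds the pump back until it is phosphorylated by protein kinase A or C. In cardiomyocytes the sodium gradient made by the pump drives calcium out of the cell through the sodium-calcium exchanger, so that pump activity bears on contractile force and is the target of digitalis.

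The 250 bases before the transcription start are shown for the genes with an entry in the RefSeq table (build GRCr8), because *Atp1b2* and *Fxyd1* had their highest means in the same 3 groups and *Atp1b3* did not. Of the 4 genes 3 had an entry, and *Atp1b1* had none. All 3 lie on the minus strand and are written 5′ to 3′ in the sense of the gene. Capitals mark the TATA box TATAAA and the GC box GGGCGG, each sought on both strands, so that a GC box of the other strand reads CCGCCC.
*Atp1b2*, chr10:54823709-54823958: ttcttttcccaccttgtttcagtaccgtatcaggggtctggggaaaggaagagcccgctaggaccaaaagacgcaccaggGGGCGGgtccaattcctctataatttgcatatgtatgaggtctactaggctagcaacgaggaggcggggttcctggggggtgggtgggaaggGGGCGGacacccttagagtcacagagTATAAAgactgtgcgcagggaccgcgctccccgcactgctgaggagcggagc
*Atp1b3*, chr8:105821152-105821401: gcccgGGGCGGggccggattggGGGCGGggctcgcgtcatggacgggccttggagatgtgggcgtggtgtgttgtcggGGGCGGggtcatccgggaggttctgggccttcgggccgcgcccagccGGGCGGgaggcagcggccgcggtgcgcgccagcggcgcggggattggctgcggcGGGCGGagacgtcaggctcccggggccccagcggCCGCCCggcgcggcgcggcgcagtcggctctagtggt
*Fxyd1*, chr1:95418581-95418830: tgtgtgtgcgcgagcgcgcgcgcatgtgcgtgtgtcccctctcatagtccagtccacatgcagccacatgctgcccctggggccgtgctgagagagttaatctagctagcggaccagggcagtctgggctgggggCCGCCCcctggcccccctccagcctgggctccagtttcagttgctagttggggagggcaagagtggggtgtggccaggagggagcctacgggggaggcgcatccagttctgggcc

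The *Atp1b3* stretch was the richest in G and C, at 79.6%, and held 6 GC boxes and 0 TATA boxes. The *Atp1b2* stretch had 58% G and C, 2 GC boxes and 1 TATA box that begins 52 bases before the start. The *Fxyd1* stretch had 66.8% G and C and 1 GC box. The median of the 33469 promoters of the table was 51.2%, and 12.9% of them held a TATA box and 30.5% a GC box. The E-box CANNTG, a motif of factors that act in muscle, was met 4 times in *Fxyd1*, 1 time in *Atp1b2* and 0 times in *Atp1b3*, and 65.5% of all promoters held it. These matches describe the letters only and none was linked to a measurement.

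The total gene count of a library was 6675287 at the lowest, 13074486 at the median and 19665439 at the highest. The 9 ventricular cardiomyocyte markers, among them *Myh6*, *Tnnt2* and *Ryr2*, were detected in every group, and no marker of another cell type was at 0 throughout, so the label of the cells was met with a remainder of other types. The LV libraries of stage F stood apart from the RV libraries. The balance of short and long genes, which is the median log2 level of genes under 1.338 kb minus that of genes over 3.652 kb, had medians of 0.356, 0.276 and 0.158 in LV Sham-F, LV PAB-F and LV AOB-F, and between -0.196 and -0.0448 in the RV groups. At stage H, the LV medians lay between -0.132 and -0.125, but LV Sham-H replicate 4, LV PAB-H replicate 2 and LV AOB-H replicate 6 lay outside the other LV libraries of that stage, and tests of members that include LV libraries of stage H were repeated without these 3. Among the RV libraries of stage H, RV AOB-H replicate 6, at -0.380, and RV PAB-H replicate 2, at -0.379, were the lowest. Both were kept in that repeat. *Fxyd1*, at 0.533 kb, is among the shortest 20% of genes. The other 3 genes are not in the lowest class, with lengths of 2.203 kb for *Atp1b1*, 2.978 kb for *Atp1b2* and 1.818 kb for *Atp1b3*.

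Per kilobase of gene length, *Fxyd1* had the highest level of the 4 genes and *Atp1b2* the lowest. Levels here are normalized counts, which are raw counts divided by the library's effective size and scaled to the mean library. Per kilobase, *Fxyd1* lay between 3067 and 14760 with a median of 6890 over the 82 libraries, *Atp1b1* between 1266 and 4057 with a median of 3047, *Atp1b3* between 322 and 885 with a median of 511, and *Atp1b2* between 51.9 and 335 with a median of 90.6. Within a gene the highest library exceeded the lowest 6.47-fold for *Atp1b2*, 4.81-fold for *Fxyd1*, 3.205-fold for *Atp1b1* and 2.75-fold for *Atp1b3*. The raw counts behind these levels were at least 131 for *Atp1b2*, 542 for *Atp1b3*, 1007 for *Fxyd1* and 2342 for *Atp1b1*. In a bulk sample of cells, fewer cells of a type and less RNA per cell cannot be told apart.

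Set in order of their means, the 12 groups fell into a high and a low set for most genes. *Atp1b1* was highest in RV Sham-H, at 7733 ± 739 (SD, n = 7) normalized counts, and lowest in LV Sham-F, at 3841 ± 665 (SD, n = 9). All 6 RV groups had means of 6997 or more, the LV groups of stage H lay between 6204 and 6418, and the LV groups of stage F at 4625 or less. Of the 11 steps between neighbours in this order, 10 were smaller than the larger SD of the pair, and the exception was the step from LV AOB-H to LV AOB-F. *Fxyd1* ran the other way, with 5765 ± 883 (SD, n = 9) in LV Sham-F, 5244 ± 1407 (SD, n = 7) in LV AOB-F and 5215 ± 1359 (SD, n = 6) in LV PAB-F, and at most 3787 in the other 9 groups. The step below LV PAB-F was the single one of 11 beyond the SD. *Atp1b2* had its highest means in the same LV groups, 588 ± 196 (SD, n = 6) in PAB-F, 556 ± 203 (SD, n = 9) in Sham-F and 549 ± 307 (SD, n = 7) in AOB-F, against means between 211 and 327 elsewhere. None of its 11 steps exceeded the SD, since these LV groups were widely spread. *Atp1b3* was highest in RV PAB-F, at 1170 ± 274 (SD, n = 6), and lowest in LV Sham-F, at 677 ± 92.8 (SD, n = 9), and LV AOB-F, at 998 ± 206 (SD, n = 7), was not in the low set.

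**Figure D1:**
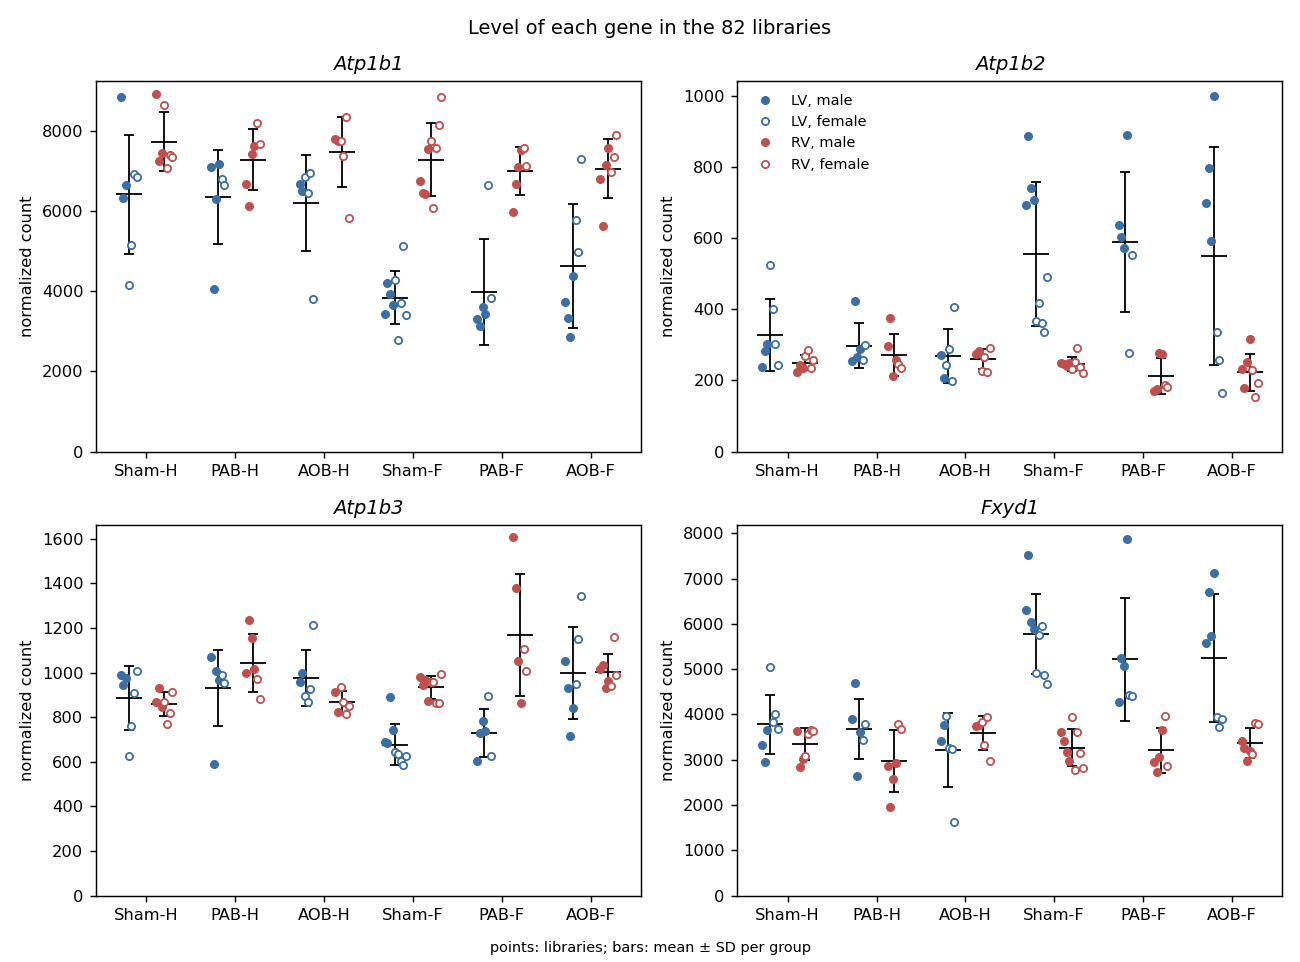
Normalized counts (vertical axes from 0) of the 4 genes in the 82 libraries, by condition, with LV in blue and RV in red, filled points for males, open points for females, and bars for the mean and SD of a group. In the LV of stage F, *Atp1b1* was lower and *Atp1b2* and *Fxyd1* were higher than in the RV, and the filled points of *Atp1b2* lay above the open ones.

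The first question of the study, what a load on a ventricle changes in its cardiomyocytes, was asked of each gene in each banded group. Of 32 values (4 genes in 8 banded groups), 2 passed an adjusted p of 0.05 by edgeR, both for *Atp1b3* and both in the loaded ventricle at failure. The other 30 log2 fold changes lay between -0.29 and 0.28, with adjusted p values of at least 0.134. For the main beta gene *Atp1b1* and for phospholemman, no response to banding passed the test in any of the 8 groups.

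*Atp1b3* had between 585 and 889 normalized counts in the LV of Sham-F, with a median of 643, and between 716 and 1342 in LV AOB-F, with a median of 947. The groups overlapped, with 5 of 7 banded libraries above all sham libraries. The log2 fold change was 0.56 (SE 0.10, adjusted p = 0.000213, edgeR), with 1 of the 4 genes called where 12.9% of all genes were. Leaving out any of the 16 libraries kept the call, at 0.49 to 0.63, but in the fit restricted to LV AOB-F and LV Sham-F it was lost, at 0.52 (adjusted p = 0.0807). In RV AOB-F, the other ventricle of the same animals, *Atp1b3* had 929 to 1158 counts with a median of 987 against 864 to 992 with a median of 956 in RV Sham-F, and no member was called (0 of 4 by edgeR or DESeq2, 0 at an unadjusted p under 0.05) where 0.0669% of all genes were. Beside this result, the summed level of the 10 fibroblast markers ranged from 578 to 1323 CPM (counts scaled to an equal total per library) in LV AOB-F and from 375 to 1170 in LV Sham-F. The 8 macrophage markers ranged from 42.2 to 233 against 37.9 to 146, the 7 endothelial markers from 1742 to 4362 against 1916 to 3559, the 7 mural markers from 840.1 to 2048 against 744 to 1672, and the 6 Schwann cell markers from 10.7 to 32.3 against 7.68 to 27.2. The 9 cardiomyocyte markers ranged from 53924 to 105768 against 79452 to 107266. The balance of short and long genes ranged from -0.0234 to 0.280 in LV AOB-F and from 0.123 to 0.541 in LV Sham-F. The mean of *Atp1b3* in LV Sham-F, 677, was the lowest of the 12 groups. It was 998 in LV AOB-F, 976 in LV AOB-H and 886 in LV Sham-H. The part of the markers and of the balance in the result was not tested.

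In the RV upon PAB at failure, the values of *Atp1b3* were 1610, 1379, 1052, 862, 1108 and 1006 normalized counts in replicates 1 to 6, against 864 to 992 with a median of 956 in RV Sham-F. Of the banded libraries 5 were above and 1 was below all sham libraries. The log2 fold change was 0.33 (SE 0.11, adjusted p = 0.0384, edgeR), and 1 of the 4 genes was called where 11.1% of all genes were. This call rested on single libraries. It was lost without RV PAB-F replicate 1, where the log2 fold change was 0.21 (adjusted p = 0.310), and without RV PAB-F replicate 2, where it was 0.27 (adjusted p = 0.127). It was also lost, at values of 0.31 to 0.33 and adjusted p values of 0.0504 to 0.0740, without RV Sham-F replicate 2, 4, 5, 7, 8 or 9, and with the size factors of DESeq2 (0.30) or with no filter (0.25). Fibroblast markers ranged from 253 to 1718 CPM in RV PAB-F and from 154 to 483 in RV Sham-F, endothelial markers from 957 to 1775 against 692 to 1088, mural markers from 510.0 to 805 against 340 to 553, macrophage markers from 22.0 to 152 against 15.5 to 43.4 and Schwann cell markers from 9.37 to 25.4 against 9.32 to 23.96. Cardiomyocyte markers ranged from 84531 to 144528 against 115091 to 154140. Their part was not tested.

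At the compensated stage the loaded RV had *Atp1b3* values of 998, 1236, 1157, 1015, 972 and 882 normalized counts, against 770 to 930 with a median of 868 in RV Sham-H. Here too 5 of 6 banded libraries lay above all sham libraries, yet the log2 fold change of 0.28 (SE 0.11, adjusted p = 0.134, edgeR) did not pass. No member was called in RV PAB-H (0 of 4 by edgeR or DESeq2, 1 at an unadjusted p under 0.05) where 4.5% of all genes were. In the fit restricted to RV PAB-H and RV Sham-H, *Atp1b3* passed, at 0.28 (adjusted p = 0.0288), where 1642 of 11009 genes were called. Fibroblast markers ranged from 362 to 2535 CPM in RV PAB-H and from 239 to 456 in RV Sham-H, endothelial markers from 944 to 1980 against 801 to 1126, mural markers from 496 to 1295 against 346 to 520, macrophage markers from 33.8 to 142 against 28.4 to 59.6, Schwann cell markers from 10.1 to 31.9 against 10.2 to 15.4 and cardiomyocyte markers from 86843 to 146316 against 131317 to 143698. Their part in the values of RV PAB-H was not tested. In the loaded LV of stage H no member was called (0 of 4, and 0 at an unadjusted p under 0.05 or by DESeq2) where 0.0167% of all genes were, and *Atp1b3* differed by 0.14 (SE 0.11, adjusted p = 0.505) and *Fxyd1* by -0.24 (adjusted p = 0.358). Without the 3 LV libraries that stood apart these values were 0.0056 (adjusted p = 0.993) and -0.013 (adjusted p = 0.990), and no member was called in LV AOB-H or LV PAB-H. In LV PAB-H, RV AOB-H and LV PAB-F, 0 of 4 members and 0% of all genes were called by edgeR, 0 members had an unadjusted p under 0.05, and 0 were called by DESeq2. The genes with an unadjusted p under 0.05 numbered 305, 171 and 454 in these 3 comparisons, and DESeq2 called 0 genes in each.

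**Figure D2:**
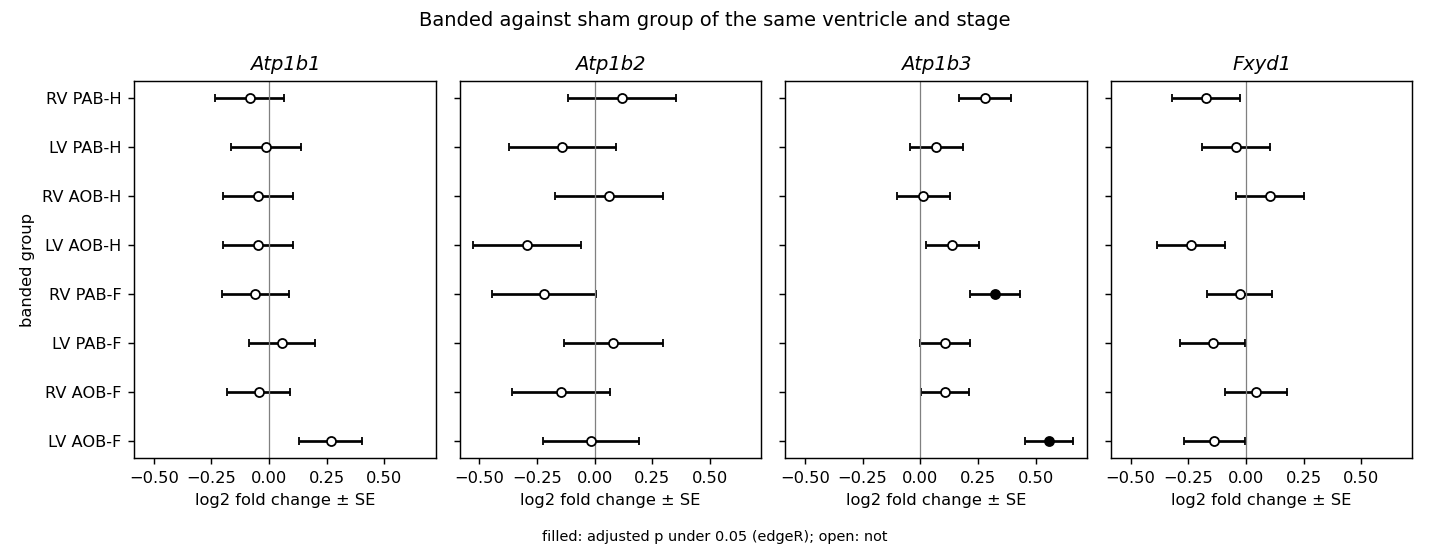
Log2 fold change with its standard error (horizontal axes) of each gene in the 8 banded groups (vertical axis), each against the sham group of its ventricle and stage. The filled points, with an adjusted p under 0.05 by edgeR, are *Atp1b3* in LV AOB-F at 0.56 and in RV PAB-F at 0.33, and all other points lie between -0.29 and 0.28.

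Whether a response to banding differed between the ventricles of the same animals was tested within the same model. For AOB at failure, the response of *Atp1b3* in the LV exceeded that in the RV by 0.45 (SE 0.15, adjusted p = 0.431, edgeR), and 0 of 4 members and 0% of all genes were called, with 1 member and 1161 genes at an unadjusted p under 0.05 and 0 members and 5 genes called by DESeq2. For PAB at failure, the RV exceeded the LV by 0.22 (adjusted p = 0.531), and 0 of 4 members were called, none at an unadjusted p under 0.05 or by DESeq2, where 0.351% of all genes were. The call of *Atp1b3* in a loaded ventricle is therefore not shown to be particular to that ventricle.

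Larger differences lay between the ventricles, and they were found at stage F. In Sham-F all 4 members were called between RV and LV, but so were 74.3% of all genes. *Atp1b1* had 6085 to 8850 normalized counts with a median of 7562 in the RV and 2789 to 5138 with a median of 3710 in the LV. It was higher in the RV by a log2 fold change of 0.92 (SE 0.13, adjusted p = 1.78e-09, edgeR), in 9 of 9 animals and without overlap. *Fxyd1* had 2767 to 3945 with a median of 3162 in the RV and 4672 to 7520 with a median of 5884 in the LV. It was lower in the RV by a log2 fold change of -0.82 (SE 0.13, adjusted p = 2.4e-08), in 9 of 9 animals and again without overlap. The glial beta gene *Atp1b2* had 220 to 290.0 with a median of 247 in the RV and 336 to 888 with a median of 490 in the LV, a log2 fold change of -1.17 (SE 0.20, adjusted p = 2.55e-07). *Atp1b2* did not overlap between the ventricles either. How many of all genes did not overlap there was not counted, so the lack of overlap is not shown to be particular to these genes. *Atp1b3* was higher in the RV by 0.46 (SE 0.10, adjusted p = 2.04e-05) in 9 of 9 animals, and 6 of 9 RV libraries exceeded every LV library. RV libraries of Sham-F therefore held more of *Atp1b1* and *Atp1b3* and less of *Atp1b2* and *Fxyd1* than LV libraries.

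In PAB-F the same directions were called for all 4 members, where 61.1% of all genes were called. The log2 fold changes of RV against LV were 0.81 for *Atp1b1*, -1.48 for *Atp1b2*, 0.68 for *Atp1b3* and -0.70 for *Fxyd1*, each in 6 of 6 animals. *Fxyd1* had 2734 to 3976 normalized counts in the RV and 4265 to 7867 in the LV there. In AOB-F, 3 of 4 members were called where 67.1% of all genes were, with 0.61 for *Atp1b1* in 7 of 7 animals, -1.30 for *Atp1b2* in 6 of 7 and -0.64 for *Fxyd1* in 6 of 7. *Atp1b3* did not differ detectably there, with a log2 fold change of 0.0090 (SE 0.11, adjusted p = 0.948), and 4 of 7 animals had the higher value in the RV.

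At stage H none of these differences passed without regard to the animal. In Sham-H, 0 of 4 members were called (0 also by DESeq2 and at an unadjusted p under 0.05) where 21% of all genes were. *Atp1b1* had 7076 to 8938 normalized counts with a median of 7400 in the RV and 4150 to 8851 with a median of 6647 in the LV, and all 7 animals had the higher value in the RV. The log2 fold change was 0.27 (adjusted p = 0.170, edgeR). With a block for the animal, which gave both libraries, it was 0.30 (SE 0.11, adjusted p = 0.0437) and passed. That fit called 1 of the 4 members and 3887 of 11954 genes. Without LV Sham-H replicate 4 and the other LV libraries that stood apart, the unblocked value was 0.20 (adjusted p = 0.375), and no member was called between the ventricles of Sham-H, PAB-H or AOB-H. In PAB-H, 0 of 4 members were called (0 by DESeq2, 1 at an unadjusted p under 0.05) where 0.125% of all genes were, and in AOB-H 0 of 4 (0 by DESeq2 and at an unadjusted p under 0.05) where 7.98% were. *Atp1b1* was nevertheless higher in the RV of 5 of 6 PAB-H and 6 of 6 AOB-H animals.

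**Figure D3:**
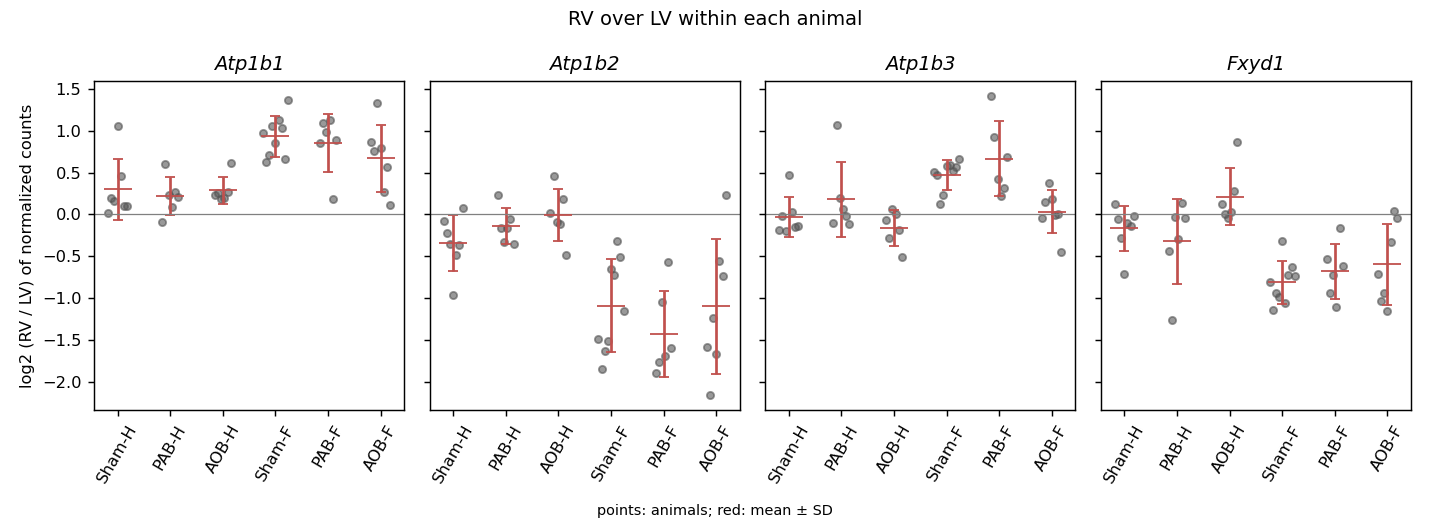
Log2 ratio of RV over LV normalized counts (vertical axis) within each of the 41 animals, by condition, with points for animals and red bars for the mean and SD. In Sham-F and PAB-F every animal lies above 0 for *Atp1b1* and *Atp1b3* and below 0 for *Atp1b2* and *Fxyd1*, whereas the AOB-F points of *Atp1b3* lie on both sides of 0.

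The stage F difference between ventricles lay on the side of the LV. Between Sham-H and Sham-F, which differ in age and in time since surgery, all 4 members were called in the LV, where 57.4% of all genes were. *Atp1b1* fell by 0.74 on the log2 scale (adjusted p = 8.19e-06, edgeR) and *Atp1b3* fell by 0.39 (adjusted p = 0.00114), while *Atp1b2* rose by 0.76 (adjusted p = 0.0017) and *Fxyd1* rose by 0.61 (adjusted p = 0.00013). Without the 3 LV libraries that stood apart these values were -0.84, -0.48, 0.89 and 0.67, and all 4 were called. In the RV 0 of 4 members were called, none by DESeq2 or at an unadjusted p under 0.05, where 0.0502% of all genes were, with log2 fold changes of -0.08, 0.12, -0.02 and -0.03 in the same order. The difference itself, RV minus LV in Sham-F less that in Sham-H, was called for all 4 members, where 41.6% of all genes were. It was 0.66 for *Atp1b1* (adjusted p = 0.00561), -0.78 for *Atp1b2* (adjusted p = 0.0295), 0.51 for *Atp1b3* (adjusted p = 0.00486) and -0.64 for *Fxyd1* (adjusted p = 0.00562). Without the 3 libraries it was 0.75, -0.92, 0.59 and -0.71, all called.

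Other values moved with the LV of stage F. Endothelial markers ranged from 1916 to 3559 CPM in LV Sham-F and from 692 to 1088 in RV Sham-F, mural markers from 744 to 1672 against 340 to 553, fibroblast markers from 375 to 1170 against 154 to 483, macrophage markers from 37.9 to 146 against 15.5 to 43.4 and Schwann cell markers from 7.68 to 27.2 against 9.32 to 23.96. The cardiomyocyte sum was lower, from 79452 to 107266 against 115091 to 154140. None of the markers of these lists was at 0 in all libraries, but *Col1a2* had under 10 counts in each library. The balance of short and long genes ranged from 0.123 to 0.541 in LV Sham-F and from -0.190 to 0.0638 in RV Sham-F, without overlap. *Fxyd1*, the shortest of the 4 genes, and *Atp1b2*, the longest, were on the higher side in the LV, and *Atp1b1* and *Atp1b3* on the lower side. The part of these values in the differences was not tested.

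**Figure D4:**
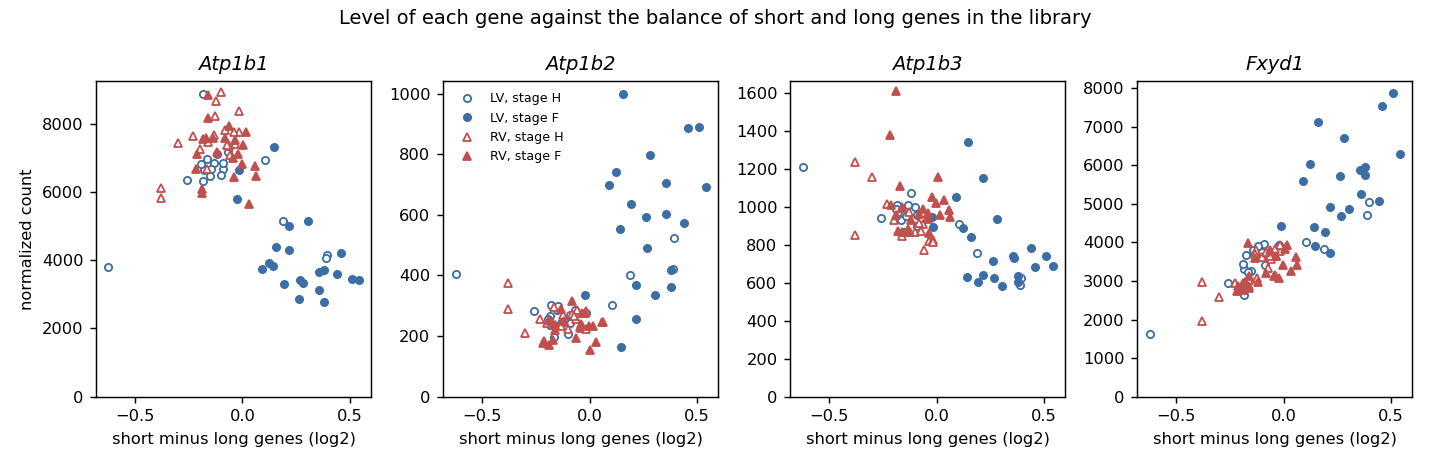
Normalized count of each gene (vertical axes from 0) against the balance of short and long genes in the same library (horizontal axes, log2), with circles for LV, triangles for RV, and filled symbols for stage F. Most filled circles, the LV libraries of stage F, lie to the right, and they hold lower *Atp1b1* and higher *Fxyd1* and *Atp1b2* values than the RV libraries.

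Shares within the beta subunits need no scaling between libraries. The share of a gene is its level per kilobase in the sum over the 3 beta genes. *Atp1b1* made up between 65.9% and 88.0% of the beta transcripts, with a median of 82.9%, *Atp1b3* between 10.4% and 26.3%, with a median of 14.6%, and *Atp1b2* between 1.29% and 13.2%, with a median of 2.37%. *Atp1b1* was thus the main beta transcript in every library. In LV Sham-F the shares of *Atp1b1*, *Atp1b2* and *Atp1b3* were 75.5% ± 4.67, 8.14% ± 2.69 and 16.4% ± 2.599 (SD, n = 9), and in RV Sham-F they averaged 84.6%, 2.14% and 13.3%. The *Atp1b1* share was higher in the RV by 9.09 percentage points in 9 of 9 animals (exact sign-flip permutation over animals, two-sided p = 0.00391, adjusted p = 0.0587), and the *Atp1b2* share was lower in 9 of 9 with the same p values. In the LV, the *Atp1b2* share was 3.44% in Sham-H (exact permutation p = 0.00262 against Sham-F, adjusted p = 0.0587).

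*Atp1b3* rose in LV AOB-F as a gene, and its share there was 19.7% against 16.4% in LV Sham-F (exact permutation p = 0.0292, adjusted p = 0.0882). In RV PAB-H its share was 14.6% against 11.7% in RV Sham-H (exact permutation p = 0.0152, adjusted p = 0.075), and in RV PAB-F 16.6% against 13.3% (exact permutation p = 0.0783, adjusted p = 0.171). Of 48 such tests 19 had an exact p under 0.05 and 0 passed after adjustment over the 48. With 6, 7 or 9 animals the smallest sign-flip p is 0.03125, 0.015625 or 0.00390625. Without LV Sham-H replicate 4, 4 tests passed, and without LV Sham-F replicate 8, 2 did. The ratio of *Fxyd1* to the summed beta transcripts, per kilobase, was 4.77 ± 0.90 (SD, n = 9) in LV Sham-F, 4.24 ± 1.40 (SD, n = 6) in LV PAB-F and 3.79 ± 1.64 (SD, n = 7) in LV AOB-F, and 2.16 ± 0.86 (SD, n = 7) in LV Sham-H. The RV groups had means between 1.39 and 1.71, so that the LV libraries of stage F held the most phospholemman transcript per beta transcript on average. *Fxyd1*, at 0.533 kb, is shorter than each beta gene. The balance of short and long genes had medians of 0.356 in LV Sham-F, 0.276 in LV PAB-F and 0.158 in LV AOB-F. In LV Sham-H and LV PAB-H the highest balances were 0.395 and 0.387, and the highest ratios were 3.93 and 3.82. The part of the balance in the ratio was not tested.

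**Figure D5:**
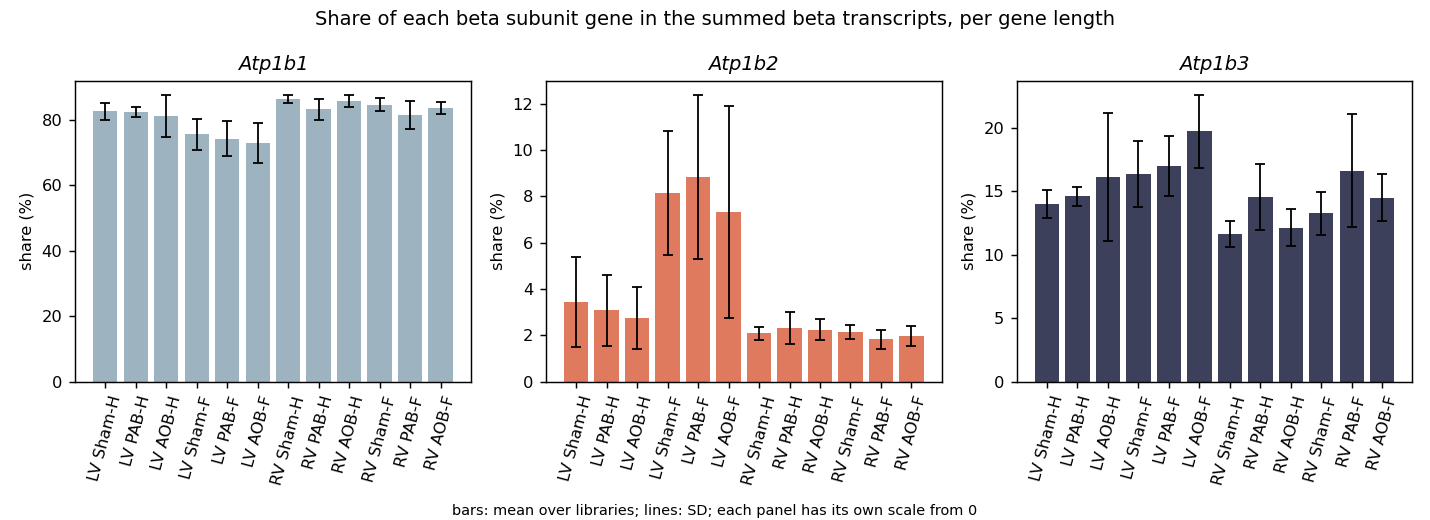
Share of each beta subunit gene in the summed beta transcripts per gene length (vertical axes in percent, each from 0) in the 12 groups, with bars for the mean over libraries and lines for the SD. *Atp1b2* reached 8.14% in LV Sham-F and 2.14% in RV Sham-F, and *Atp1b3* was highest in LV AOB-F at 19.7%.

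The wide spread of *Atp1b2* in the LV of stage F separated by the sex of the animals, a comparison that was added after the values were seen. In LV Sham-F the males had 693, 888, 741 and 706 normalized counts and the females 367, 419, 362, 336 and 490. In LV AOB-F the males had 697, 798, 592 and 999 and the females 337, 256 and 166, and in LV PAB-F the males had 637, 602, 573 and 890 and the females 276 and 553. The sexes did not overlap in any of these 3 groups, of which LV PAB-F had only 2 females. How many of all genes did not overlap was not counted, so this is not shown to be particular to *Atp1b2*. Over the LV of stage F, with the condition in the model, *Atp1b2* was higher in males by a log2 fold change of 1.09 (SE 0.14, adjusted p = 7.67e-09, edgeR), *Fxyd1* was higher by 0.44 (SE 0.11, adjusted p = 0.000757) and *Atp1b1* was lower by a log2 fold change of -0.42 (SE 0.11, adjusted p = 0.00159). *Atp1b3* differed by -0.03 (adjusted p = 0.838). The 3 members called of 4 stand beside 35.3% of all genes.

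Within LV AOB-F, *Fxyd1* ranged from 5586 to 7128 in males and from 3715 to 3938 in females. *Atp1b1* ranged there from 2862 to 4371 in males and from 4987 to 7313 in females. In LV Sham-F the sexes overlapped for both of these genes. *Atp1b3* had another pattern. In females it ranged from 947 to 1342 in LV AOB-F and from 585 to 643 in LV Sham-F, and in males from 716 to 1053 against 684 to 889. Whether the response of *Atp1b3* to AOB differed between the sexes was not tested. With sex as a covariate its log2 fold change in LV AOB-F stayed 0.56.

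In the other libraries no member was called between males and females by edgeR. These were the LV of stage H, where 0.468% of all genes were called, the RV of stage H, where 0.125% were, and the RV of stage F, where 0.929% were, and no member had an unadjusted p under 0.05 in any of them. The difference between the sexes in the LV exceeded that of stage H at stage F by 1.284 for *Atp1b2* (SE 0.20, adjusted p = 9.21e-05), and it also differed for *Atp1b1*, by -0.55 (adjusted p = 0.0136), and *Fxyd1*, by 0.48 (adjusted p = 0.0256), with 3 of 4 members called where 18.1% of all genes were. Without the 3 LV libraries of stage H that stood apart these values were 1.17, -0.50 and 0.53, all called. At stage F it was larger in the LV than in the RV for *Atp1b2*, by 0.90 (SE 0.19, adjusted p = 0.00401), and for *Fxyd1*, by 0.52 (adjusted p = 0.0231), but not detectably for *Atp1b1*, at -0.28 (adjusted p = 0.275). That made 2 of 4 members called where 6.27% of all genes were. Marker levels also moved with sex in the LV of stage F. Schwann cell markers ranged from 21.3 to 32.3 CPM in the 12 males and from 7.68 to 18.7 in the 10 females, and mural markers from 1383 to 2048 and from 552 to 1335, both without overlap. Endothelial markers ranged from 2690 to 4362 and from 1686 to 2953, fibroblast markers from 598 to 1323 and from 352 to 995, macrophage markers from 69.7 to 233 and from 35.1 to 224, and cardiomyocyte markers from 76226 to 106867 and from 53924 to 124750. The balance of short and long genes had medians of 0.318 in males and 0.217 in females. Their part in the difference was not tested.

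The other genes of sodium handling were read from 4 lists with 31 genes in all, of which 29 were tested. *Ank2* was not analysed here and *Slc8a3* had too few counts to be tested. In the loaded LV at failure 3 of the 29 rose and 3 fell, beside 12.9% of all genes called. *Ppp2ca*, the catalytic subunit of protein phosphatase 2A, which removes phosphate from phospholemman, had 936 to 1434 normalized counts in LV Sham-F and 1201 to 3103 in LV AOB-F and rose by 0.75 on the log2 scale (adjusted p = 0.00175, edgeR). *Prkce*, a protein kinase C isoform, had 1385 to 2171 against 748 to 1648 and fell by 0.43 (adjusted p = 0.00256). Both calls held without any 1 of the 16 libraries. In the fit to LV AOB-F and LV Sham-F alone they were lost, at 0.71 (adjusted p = 0.0831) and -0.46 (adjusted p = 0.135), and 0 of the 29 genes were called. The spectrin genes *Sptan1* and *Sptbn1*, which belong to the membrane skeleton that holds pump and exchanger in place, rose by 0.48 (adjusted p = 0.0134) and 0.58 (adjusted p = 0.0189). Leaving out LV AOB-F replicate 1 ended the calls of *Sptan1*, at 0.41, and *Sptbn1*, at 0.36, and leaving out replicate 2 that of *Sptbn1*, at 0.50. *Fxyd3* and *Fxyd7*, relatives of phospholemman, fell by 0.68 (adjusted p = 0.0368) and 0.77 (adjusted p = 0.0389), and either call was lost in 8 of 16 fits with a library left out, down to -0.55 for *Fxyd3* without LV Sham-F replicate 7 and -0.58 for *Fxyd7* without LV Sham-F replicate 8. The median log2 fold change of the 11 genes of kinases and phosphatases was 0.07 against 0.04 over all genes tested. The part of the marker levels and of the balance of LV AOB-F, given above, in these calls was not tested.

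In the loaded RV at failure 4 of the 29 rose and 3 fell, beside 11.1% of all genes called. *Ppp1r1a*, an inhibitor of protein phosphatase 1 that is switched on by protein kinase A, had 50.7 to 124 normalized counts in RV Sham-F and 16.9 to 57.1 in RV PAB-F and fell by 1.13 (adjusted p = 3.2e-05, edgeR). *Slc8b1*, the mitochondrial sodium-calcium exchanger, had 65.4 to 122 against 118 to 326 and rose by 1.02 (adjusted p = 0.00115). Both held in 15 of 15 fits with a library left out. *Fxyd6* rose by 1.24 (adjusted p = 0.00435), *Slc8a2*, a plasma membrane exchanger at 4.89 to 41.7 counts, rose by 1.30 (adjusted p = 0.0283), and *Fxyd3* fell by 0.80 (adjusted p = 0.0284). Without RV PAB-F replicate 1 these 3 were not called, at 0.97, 1.02 and -0.68. *Slc8a2* was also lost without RV PAB-F replicate 2 or 5 or RV Sham-F replicate 7, at 1.21 to 1.25, and *Fxyd3* without RV PAB-F replicate 2, at -0.65, or 5, at -0.78. *Fxyd5*, which encodes dysadherin, rose by 0.75 (adjusted p = 0.0475) and was called in 6 of 15 fits with a library left out, with the lowest value of 0.52 without RV PAB-F replicate 1, and in neither the fit with the size factors of DESeq2 nor that with no filter. The list of the other beta and FXYD genes had a median of 0.68 over its 7 genes, against 0.02 over all genes. Of these 7, 2 rose, 1 fell and 4 were not called. Their counts were low, with a lowest mean of 7.93 in RV PAB-F and 3.88 in RV Sham-F, so the median does not show a rise of the family. The part of the marker levels of RV PAB-F, given above, in these calls was not tested.

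At the compensated stage 2 of the 29 rose and 1 fell in RV PAB-H, beside 4.5% of all genes. *Ppp1r1a* fell by 0.91 (adjusted p = 0.00566, edgeR), while *Fxyd5* rose by 0.90 (adjusted p = 0.0435) and *Slc8b1* rose by 0.77 (adjusted p = 0.0439). Without RV PAB-H replicate 2 none of these 3 was called, at -0.82, 0.68 and 0.61. *Fxyd5* was called in 5 and *Slc8b1* in 4 of 13 fits with a library left out, and both were lost with the size factors of DESeq2, with no filter and with sex as a covariate. The marker levels of RV PAB-H given above moved with these calls too. In LV AOB-H 0 of 29 were called by edgeR or DESeq2, and 8 had an unadjusted p under 0.05. Between RV and LV of Sham-F 13 of the 29 were higher and 9 lower in the RV, beside 74.3% of all genes. Of all 11954 genes 4258 were higher and 4618 lower. Of the 11 kinases and phosphatases 7 were higher and 1 lower, and of the 7 other beta and FXYD genes 1 was higher and 4 lower. In the LV of Sham-F against Sham-H 7 rose and 12 fell, beside 57.4% of all genes, of which 3318 rose and 3542 fell.

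The pattern of a gene over the 12 groups was compared with that of 9448 genes with a mean normalized count of at least 50 by the correlation of group means of log2 CPM, as a description. The most alike to *Atp1b1* were *Cyp51* (r = 0.995), *Tmod1* (r = 0.994) and *Ppp1r12b* (r = 0.992). *Atp1b2* was followed most closely by *Brd1* (r = 0.990), *Ypel3* (r = 0.989) and *Fbxo46* (r = 0.989), and *Fxyd1* by *Asna1* (r = 0.990), *Dnlz* (r = 0.989) and *Atp6v1f* (r = 0.988). For *Atp1b3* they were *P4ha1* (r = 0.975), *Akap13* (r = 0.971) and *Pgrmc1* (r = 0.968). Among the members, *Atp1b2* and *Fxyd1* ran together (r = 0.932 over 12 groups) and *Atp1b1* ran against both (r = -0.949 with *Atp1b2* and -0.925 with *Fxyd1*), while *Atp1b3* was less closely tied to *Atp1b1* (r = 0.646). The RV and LV points of a condition come from the same animals. For *Atp1b1*, *Atp1b2* and *Fxyd1* the LV groups of stage F lie at one end, whereas for *Atp1b3* LV AOB-F does not lie with LV Sham-F and LV PAB-F.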

How the data were processed

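RNA from cardiomyocytes of both ventricles was depleted of ribosomal RNA and sequenced from both ends on a NovaSeq. The labels and the article name different RNA extraction kits. The authors trimmed reads with Trim Galore, aligned them to the Rnor6.0 rat genome with STAR in the nf-core pipeline and counted them per gene with featureCounts. They deposited raw counts, normalized counts (a signal value, the count of a library divided by its DESeq2 1.28.1 size factor) and FPKM values. The use of strand in counting is not given in the sources used here. Here the deposited raw counts entered all tests, the deposited FPKM values gave the gene lengths, the deposited normalized signal entered no test, and 0 value columns of other samples were present.

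Tests were run in R 4.3.3 with edgeR 4.0.16 as 1 quasi-likelihood fit over 82 libraries with 1 mean per group and TMM scaling, on 11954 genes that filterByExpr kept. A gene was called at a Benjamini-Hochberg adjusted p under 0.05 over all genes tested, and tests were two-sided. The spread of genes between libraries was 0.244 (common biological coefficient of variation). Normalized counts were scaled to the mean effective library size of 13279120. A further fit held a sex term per ventricle and stage. Shares were compared by exact permutation of libraries or sign flips of animals (scipy 1.17.1). No libraries of a group were copies (chi-square per gene at least 4.7). By the labels, equal numbers in RV and LV mark the same animal. Deviations of such pairs from their group means had median correlations of 0.186 to 0.297, against -0.0686 to -0.0142 for different animals. The functions were tested on simulated data.

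Named are the 4 genes, list genes called in a loaded ventricle, and for each gene the 3 with the most similar group means. The values of 1 called list gene are not reported here. The members and lists were chosen with earlier results of these data known. The alternatives were DESeq2 1.42.0, its size factors, no filter, sex as a covariate, a fit to 2 groups, blocks by animal or replicate number, the study's 3 criteria (absolute log2 fold change over 1, unadjusted p of at most 0.01, mean over 50) and each library left out. Read depth limits the precision of counts, and the unblocked fit treats both ventricles of an animal as independent.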

Additional observations from a re-analysis of the deposited data

Results flagged for a closer look

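In 8 of 48 groups of values, 1 library lay far from the others of its group by Dixon's test at the 95% level, where chance alone would do so in about 1 of 20 groups. *Atp1b1* was lowest in LV AOB-H replicate 6, at 3802 normalized counts against 6457 to 6951 in the others, and in LV PAB-H replicate 2, at 4049 against 6308 to 7173. It was highest in LV PAB-F replicate 5, at 6647 against 3138 to 3836. *Atp1b2* was highest in LV PAB-H replicate 2, at 422 against 254 to 299, and in RV Sham-F replicate 7, at 290.0 against 220 to 253. *Atp1b3* was lowest in LV PAB-H replicate 2, at 591 against 952 to 1072. *Fxyd1* was lowest in LV AOB-H replicate 6, at 1635 against 3236 to 3964, and highest in LV PAB-F replicate 4, at 7867 against 4265 to 5249. Of these libraries, LV AOB-H replicate 6 and LV PAB-H replicate 2 also stood apart in the balance of short and long genes.

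The difference between RV and LV itself differed between Sham-F and Sham-H for all 4 genes by the interaction contrast of edgeR, by 0.66 for *Atp1b1*, -0.78 for *Atp1b2*, 0.51 for *Atp1b3* and -0.64 for *Fxyd1* on the log2 scale.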

How the results depend on the processing

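Of the 32 values upon banding, 14 changed sign under some alternative, and none of these exceeded 0.14 on the log2 scale. The call of *Atp1b3* in RV PAB-F was lost, leaving 0 members called, with the size factors of DESeq2 (0.30), with no filter (0.25), with the replicate number as a block (0.31) and by the 3 criteria of the study, and leaving out a library gave 0 to 1 member called. The call of *Atp1b3* in LV AOB-F was lost in the fit to 2 groups (0.52, 0 members called), where 15 of all genes were called, and by the 3 criteria (0 members). In RV PAB-H 1 member was called in the fit to 2 groups, where 1642 of 11009 genes were. The 3 criteria, which ask for a log2 fold change over 1, left 1 member each between the ventricles of Sham-F, PAB-F and AOB-F and 0 between the ages in the LV. With the replicate block by animal, 1 member in place of 0 was called between RV and LV of Sham-H, beside 3887 of 11954 genes. The block by animal changed no other call of a member. By the labels, banded and sham libraries with equal replicate numbers come from different animals. Their deviations had median correlations between -0.0809 and 0.160, against -0.0392 to 0.115 for unequal numbers. Equal numbers had the higher median in RV PAB-F (0.139 against -0.0321) and the lower one in LV AOB-H (-0.0809 against 0.0247). These values do not settle whether the numbers mark blocks. *Atp1b2* changed sign between RV and LV of AOB-H, to 0.11, without the 3 LV libraries of stage H, an alternative chosen after seeing the data, and *Atp1b3* in AOB-F changed to -0.015 with the size factors of DESeq2 and to -0.015 with DESeq2. The number of share tests that passed was 0 to 4 when a library was left out. In the fit to 2 groups 12, 16 and 0 genes of the 4 lists were called in RV PAB-H, RV PAB-F and LV AOB-F, against 3, 7 and 6. The cause of these changes was not tested. The lowest raw count was 131, for *Atp1b2*.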
